A study of Mus musculus with 2 samples.

Results

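The genes described here encode enzymes that add or remove methyl and acetyl groups on histones. They were chosen by name: a protein-coding mouse gene entered when its symbol began with Kdm, Kmt, Setd, Hdac, Kat, Prmt or Sirt followed by a number, or with Setdb. The rule used no measured value and found 69 of the 21474 protein-coding genes among 43346 Ensembl genes in the deposited tables. By family these were 18 Kdm, 8 Kmt, 10 Setd, 11 Hdac, 7 Sirt, 8 Kat and 7 Prmt genes. RNA with poly(A) tails was sequenced from both ends in 2 libraries of erythroblasts, the nucleated precursors of red cells, which were Ter119+ cells of the fetal liver of mouse embryos at 14.5 days of development, males and females pooled. The labels give no strain, genotype or treatment, and both libraries belong to 1 untreated group, so no comparison between conditions is possible. The labels call them biological replicates 1 and 2, from separate biosamples listed under the same donor entry; they are called library 1 and library 2, and whether they hold different litters is not stated.

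The expected counts totalled 51190555 for library 1 and 44256287 for library 2, and globin genes took 72.3% and 72.2% of them. The level used throughout is TPM, which divides a gene's reads by its length and scales the result to the same total in every library. Globin genes took 86.0% of TPM in library 1 and 84.4% in library 2, so the level of every other gene is a share of what remained. All 8 erythroid markers passed 1 TPM in both libraries, among them the transcription factor Klf1 at 367 and 405 TPM. The summed levels of marker lists for other cells were 0.97 and 0.82 TPM for progenitors (none of 3 passed), 8.22 and 10.2 for hepatocytes (2 of 4), 8.24 and 12.5 for macrophages (2 of 5), 9.02 and 11.0 for neutrophils (3 of 4), 10.5 and 13.2 for megakaryocytes (2 of 3), 3.41 and 4.10 for lymphoid cells (1 of 4, with Cd3e at 0 in both), 0.13 and 0.17 for endothelium (none of 3) and 1.11 and 1.24 for mast cells (none of 3). In such bulk RNA, fewer cells that express a gene and less of its RNA per cell cannot be told apart, and the part that other cells play in enzyme levels of the same size was not tested.

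Histone tails carry methyl and acetyl groups on lysines and methyl groups on arginines. Enzymes called writers place these marks, and erasers remove them. Acetylation and methylation of lysine 4 on histone H3 accompany active promoters, whereas methylation of lysine 9 or 27 on H3 accompanies silent chromatin. Methylation of lysine 20 on histone H4 is linked to chromatin compaction: KMT5A places the first methyl group, and KMT5B and KMT5C add further ones. Erythroblasts condense their chromatin before they expel the nucleus, and the erythroid repressor GFI1B is known to bring the demethylase KDM1A and class I histone deacetylases to its targets.

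The 3 genes of H4 lysine 20 methylation held both the top of the list and a place near its lower end, so the sequences at their starts are shown here, 5′ to 3′ on the plus strand, the strand of all 3 genes. Each covers 250 bases before to 50 bases after a transcription start in the RefSeq annotation of GRCm38.p6. That start is the same as for transcripts Kmt5a-201 and Kmt5b-206. For Kmt5c it lies 58 bases from the start of Kmt5c-203. Capitals mark matches to CCNCNCCC, a form of the CACC motif that KLF1 is known to bind, on either strand.
Kmt5c, chr7:4739877-4740176: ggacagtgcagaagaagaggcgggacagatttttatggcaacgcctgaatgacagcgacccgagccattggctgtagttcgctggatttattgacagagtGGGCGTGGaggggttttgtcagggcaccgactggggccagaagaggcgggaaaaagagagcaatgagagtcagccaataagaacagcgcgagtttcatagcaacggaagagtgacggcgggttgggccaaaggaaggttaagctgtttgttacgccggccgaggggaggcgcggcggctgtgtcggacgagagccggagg
Kmt5a, chr5:124439680-124439979: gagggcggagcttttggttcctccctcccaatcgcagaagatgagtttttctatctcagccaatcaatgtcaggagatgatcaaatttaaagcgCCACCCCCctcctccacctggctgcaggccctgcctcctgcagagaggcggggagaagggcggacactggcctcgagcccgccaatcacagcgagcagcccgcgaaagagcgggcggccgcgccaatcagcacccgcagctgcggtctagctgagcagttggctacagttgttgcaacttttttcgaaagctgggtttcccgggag
Kmt5b, chr19:3767171-3767470: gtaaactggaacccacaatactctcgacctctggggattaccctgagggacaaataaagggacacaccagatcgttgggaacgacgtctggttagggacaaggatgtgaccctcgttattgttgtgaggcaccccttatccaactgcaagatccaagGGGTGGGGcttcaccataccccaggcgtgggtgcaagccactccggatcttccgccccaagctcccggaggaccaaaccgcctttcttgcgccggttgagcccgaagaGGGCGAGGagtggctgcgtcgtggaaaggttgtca
The first 2 windows held 1 match each and the Kmt5b window held 2. None held AGATAA or TGATAA, forms of the motif that GATA1 binds, on either strand. Forms of that motif that end in G were not counted, and the Kmt5a window holds AGATAG on the minus strand. The 3 windows were alike in base composition, with a GC content of 57.7% at Kmt5c, 59.7% at Kmt5a and 57.3% at Kmt5b and 22, 18 and 16 CpG pairs. The promoter table covered 57 of the 69 enzyme genes with 78 windows. CCNCNCCC stood in 62.8% of these and in 49.5% of all 32851 windows, and AGATAA or TGATAA in 12.8% of these and in 18.6% of all. The enzyme windows were also richer in CpG, with a median of 21 pairs against 7 over all windows, and in GC, with a median of 61.3% against 52.7%. A match is a stretch of letters, not evidence of binding.

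Most of these enzyme genes were expressed at a low level. In both libraries, 22 of 69 (31.9%) reached 1 TPM, against 20.0% of all protein-coding genes, and 5 (7.25%) reached 10 TPM, against 5.84%. Of the others, 9 reached 1 TPM in a single library, 30 reached 0.1 TPM in at least 1 library but 1 TPM in neither, and 8 stayed under 0.1 TPM in both. The median of the mean level was 0.62 TPM, against 0.02 TPM over all protein-coding genes, of which 35.1% had no count in either library; Hdac9 was the only such gene among the enzymes. Together the 69 genes summed to 242 TPM in library 1 and 268 in library 2, which was 0.173% ± 0.000832 (SD, n = 2) of the TPM outside the globin genes. The 5 most abundant genes supplied 66.1% and 64.5% of that sum.

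**Figure D1:**
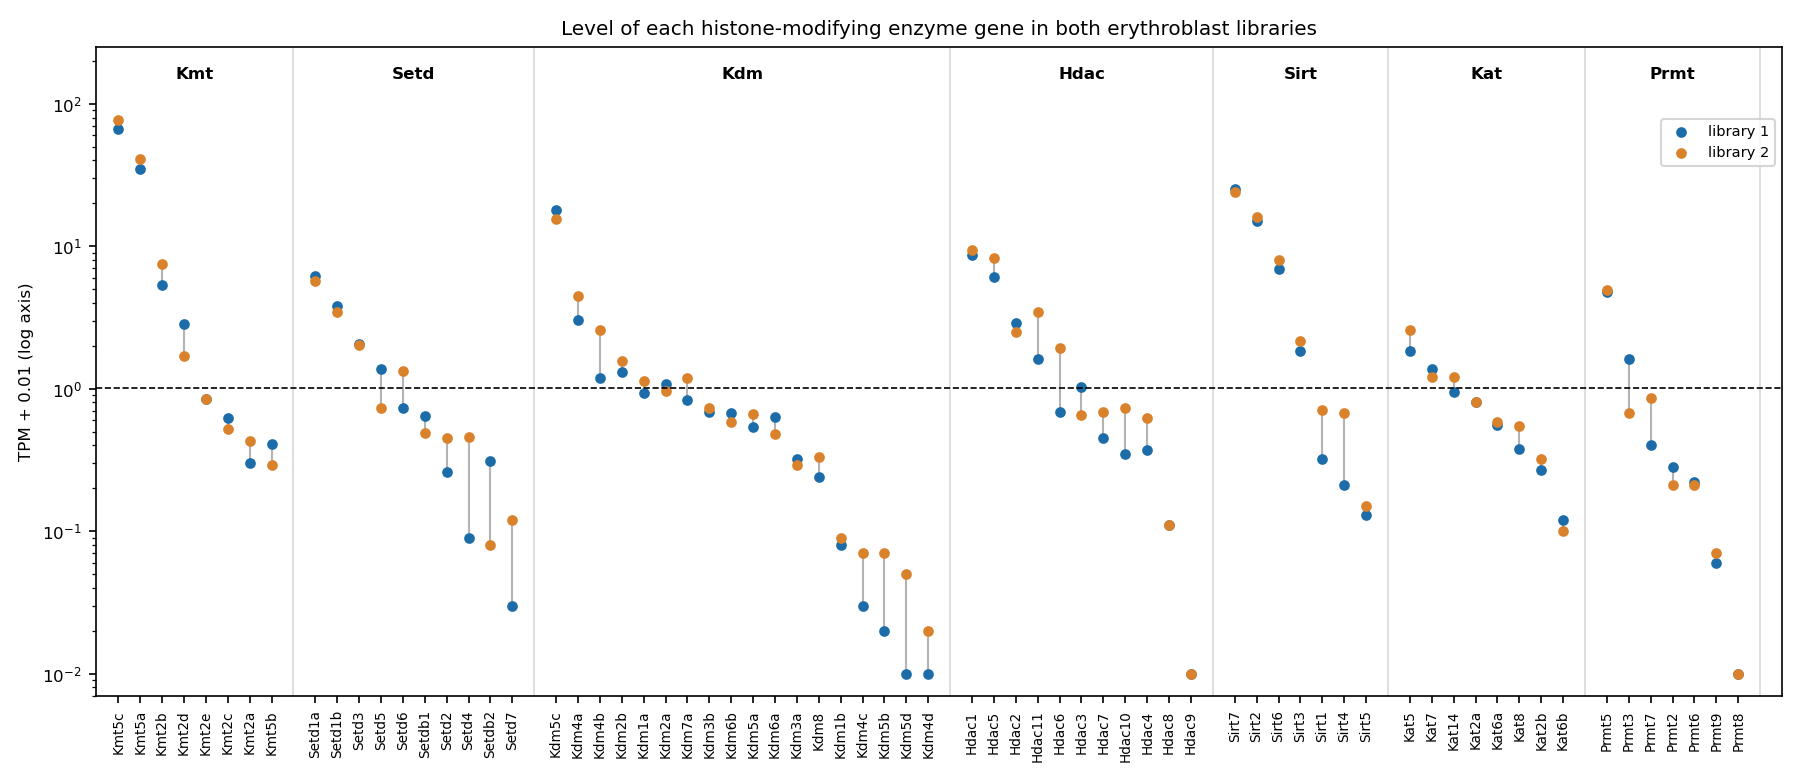
Level of each of the 69 enzyme genes in library 1 (blue) and library 2 (orange), as TPM + 0.01 on a log axis, grouped by family and ordered by mean within each; grey lines join the libraries and the dashed line stands at 1 TPM. Kmt5c and Kmt5a lie above all others, and in every family the levels run down from 1 or a few members to values below 1 TPM.

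Kmt5c, which encodes the SUV420H2 methyltransferase of heterochromatin, lies on chromosome 7 from base 4740115 to 4747514 of mm10 and had the highest level of all members. It was at 66.9 TPM in library 1 (12934 counts) and 76.4 TPM in library 2 (10407 counts), a mean of 71.7 ± 6.72 TPM (SD, n = 2), rank 272 among protein-coding genes. Kmt5a, on chromosome 5 from 124439930 to 124462308, was next at 34.9 and 40.7 TPM. Kmt5b, on chromosome 19 from 3767421 to 3818303, was at 0.40 and 0.28 TPM (118 and 88 counts). The pair Kmt5c and Kmt5a thus made up 42.0% and 43.7% of the TPM of all 69 genes, while their relative Kmt5b was far down the list. Kmt5c exceeded Kmt5b, which shares its activity, 167-fold in library 1 and 273-fold in library 2 by TPM, and 110-fold and 118-fold by CPM, counts scaled to the library total without regard to length. Kmt5c exceeded Kmt5a 1.92-fold and 1.88-fold, and the libraries of the 2 genes did not overlap.

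Writers of H3 lysine 4 methylation were spread over several genes of middling level. Kmt2b, which methylates lysine 4 at many promoters, had 5.33 and 7.54 TPM, and Setd1a, catalytic subunit of a SET1 complex, had 6.20 and 5.72 TPM; the order of the 2 genes differed between the libraries. Setd1b, the other SET1 subunit, had 3.81 and 3.45 TPM, and Kmt2d, a methyltransferase of enhancers, had 2.83 and 1.69. These 4 of 6 genes reached 1 TPM in both libraries. Kmt2c, the enhancer relative of Kmt2d, had 0.61 and 0.51 TPM. Kmt2a, which is needed for definitive blood formation, had 0.29 and 0.42 TPM, with Kmt2b 18.4-fold and 18.0-fold above it. The 6 genes summed to 19.1 and 19.3 TPM, less than Kmt5a alone.

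Writers of the other lysine marks within the naming rule were low. Setdb1, an H3 lysine 9 methyltransferase that silences repeats, had 0.63 and 0.48 TPM, and its relative Setdb2 had 0.30 and 0.07 (11 and 16 counts). Setd2, which places the third methyl group on H3 lysine 36 in transcribed genes, had 0.25 and 0.44 TPM. Among members with other or unclear substrates, Setd3, known as an actin histidine methyltransferase, had 2.04 and 2.02 TPM and passed in both libraries. Setd5 had 1.37 and 0.72 TPM, Setd6, a methyltransferase of the NF-κB subunit RELA, had 0.72 and 1.31, and Kmt2e had 0.84 in both. The lowest of the Setd family was Setd7 at 0.02 and 0.11 TPM. So 3 of 10 Setd genes and 4 of 8 Kmt genes passed 1 TPM in both libraries, and of the 12 genes assigned to writing a lysine methyl mark, 6 passed, with a sum of 122 and 138 TPM.

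Among the lysine demethylases, a single gene stood above 10 TPM. Kdm5c, an X-linked eraser of H3 lysine 4 methylation (chromosome X, 152233020 to 152274535), had 18.0 TPM in library 1 and 15.6 in library 2, a mean of 16.8 ± 1.70 TPM (SD, n = 2). Its relatives were much lower, with Kdm5a at 0.53 and 0.65 TPM, Kdm5b at 0.01 and 0.06 (6 and 22 counts), and the Y-linked Kdm5d at 0.00 and 0.04 (2 and 12 counts). Kdm1a, the LSD1 demethylase that partners GFI1B, was at the threshold with 0.92 and 1.13 TPM, and its relative Kdm1b had 0.07 and 0.08. Kdm5c was above Kdm1a 19.6-fold and 13.8-fold and above Kdm5a 34.0-fold and 24.0-fold. Of the 6 genes assigned to erasing this mark, Kdm5c alone passed 1 TPM in both libraries.

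Erasers of H3 lysine 9 methylation came next. Kdm4a had 3.04 and 4.47 TPM and Kdm4b had 1.17 and 2.55 TPM, the third highest of the family. Kdm7a was on the threshold at 0.82 and 1.18 TPM, Kdm3b had 0.68 and 0.72, Kdm3a 0.31 and 0.28 and Kdm4c 0.02 and 0.06. Kdm4d, the lowest of the family, had no count in library 1, where the limit of 3 counts corresponds to 0.0586 CPM, and a single count in library 2. Of the H3 lysine 36 erasers, Kdm2b had 1.29 and 1.55 TPM and Kdm2a had 1.07 and 0.95. Of the H3 lysine 27 erasers, Kdm6b had 0.66 and 0.57 TPM and Kdm6a had 0.62 and 0.47, with values that overlapped. Kdm8, a JmjC protein, had 0.23 and 0.32 TPM. In all, 4 of 18 Kdm genes passed. The 17 assigned to a lysine mark summed to 29.2 and 30.4 TPM, below the sum for the writers in both libraries. Of the writer sum, 102 and 117 TPM came from Kmt5c and Kmt5a, writers on H4, for which no eraser was assigned here. For H3 lysine 4, writers summed to 19.1 and 19.3 TPM and erasers to 19.5 and 17.6. For H3 lysine 9, writers summed to 0.93 and 0.55 TPM and erasers to 6.04 and 9.27. For H3 lysine 36, these sums were 0.25 and 0.44 TPM against 2.36 and 2.50.

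Hdac1 led the zinc-dependent deacetylases, which remove acetyl groups from histones and other proteins. It had 8.62 TPM in library 1 and 9.38 in library 2. Hdac2, its partner in the NuRD, SIN3 and CoREST complexes, had 2.86 and 2.49 TPM, Hdac3, the NCOR-bound enzyme, had 1.01 and 0.64, and Hdac8 had 0.10 in both. Hdac1 was thus 3.01-fold and 3.77-fold above Hdac2 and 8.53-fold and 14.7-fold above Hdac3. Hdac5 was the most abundant class IIa gene at 6.11 and 8.29 TPM, against 0.44 and 0.68 TPM for Hdac7 and 0.36 and 0.61 for Hdac4. Hdac9, of the same class, had 0 counts in each library, so a level of up to 0.0586 CPM in library 1 and 0.0678 CPM in library 2 is possible. Hdac11, the class IV enzyme, had 1.61 and 3.45 TPM, Hdac6, a tubulin deacetylase of class IIb, had 0.68 and 1.93, and Hdac10, a polyamine deacetylase of the same class, had 0.34 and 0.72. Hdac1, Hdac5, Hdac2 and Hdac11, 4 of 11, passed in both libraries. The order of Hdac1 over Hdac5 held by TPM in both libraries (1.41-fold and 1.13-fold) but not by CPM, where Hdac1 over Hdac5 was 1.16 in library 1 and 0.754 in library 2.

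The NAD-dependent sirtuins summed to 49.7 and 51.7 TPM, against 22.1 and 28.3 TPM for the zinc-dependent deacetylases. Sirt7, a nucleolar deacylase of H3 lysine 18 (chromosome 11, 120618372 to 120625240), had 25.2 and 24.0 TPM, a mean of 24.6 ± 0.849 TPM (SD, n = 2). Sirt2, a mainly cytoplasmic deacetylase of tubulin and histone H4 (chromosome 7, 28766735 to 28788661), had 15.1 and 16.1 TPM, and Sirt6, a nuclear deacylase of H3, had 6.92 and 7.96. Sirt1, the most studied nuclear sirtuin, had 0.31 and 0.70 TPM. Sirt7 was 81.4-fold and 34.3-fold above Sirt1 by TPM, but 21.4-fold and 16.4-fold by CPM. The mitochondrial genes were below Sirt7, Sirt2 and Sirt6, with Sirt3 at 1.84 and 2.15 TPM, above Sirt1. Sirt4 had 0.20 and 0.67 TPM and Sirt5, the lowest of the family, 0.12 and 0.14. Sirt3 rested on 67 and 68 counts, with 91.1% and 85.3% of its TPM in the 456-base transcript Sirt3-204. The 4 nuclear or cytoplasmic sirtuins summed to 47.5 and 48.8 TPM, against 12.6 TPM for the 4 class I deacetylases in both libraries. By family, 4 of 7 Sirt genes passed, and Sirt7, Sirt2 and Sirt6 did not overlap one another.

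Histone acetyltransferases and arginine methyltransferases had the lowest summed levels of the families, at 6.20 and 7.26 TPM for Kat and 7.31 and 6.88 for Prmt. By median level, Kat at 0.675 TPM was above Kdm at 0.6025. The Prmt sum leaves out Prmt1 and Carm1, which the naming rule did not take and which are described below. Kat5, the catalytic subunit of NuA4, had 1.82 and 2.57 TPM, Kat7, which acetylates H3 lysine 14, had 1.37 and 1.19, and Kat14, of the ATAC complex, had 0.93 and 1.20. Of the acetyltransferases of SAGA and ATAC, Kat2a had 0.79 TPM in both libraries and Kat2b had 0.26 and 0.31. Kat8, which acetylates H4 lysine 16, had 0.37 and 0.54 TPM, Kat6a had 0.55 and 0.57, and Kat6b, the lowest, had 0.11 and 0.09. Thus 2 of 8 Kat genes passed, and none reached 3 TPM. Of the exon bases of Kat5, 426 of 3509 (12.1%) are shared with exons of Rnaseh2c on the opposite strand, a gene at 91.7 and 108 TPM. Whether reads were assigned by strand is not given in the sources used here, so reads of the 2 genes may not have been told apart there.

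Prmt5, the main symmetric arginine methyltransferase, was the only Prmt gene to pass, at 4.78 and 4.91 TPM. Prmt3, a ribosomal protein methyltransferase, had 1.61 and 0.66 TPM and Prmt7, a monomethyltransferase, had 0.39 and 0.85. Prmt2 had 0.27 and 0.20 TPM, Prmt6 had 0.21 and 0.20 and Prmt9 had 0.05 and 0.06. Prmt8, known from brain, was the lowest, with 1 count in library 1 and 0 in library 2, both listed as 0.00 TPM. Prmt1, the main asymmetric enzyme, did not enter by the rule because its gene identifier in the later annotation is not a row of the tables. A row that holds 2 of its 14 later transcripts had 4.48 and 4.43 TPM, which would place it beside Prmt5.

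By the lower of the 2 libraries, Kdm4b (1.17) and Kat7 (1.19) were the closest above 1 TPM, and Kdm2a (0.95) and Kat14 (0.93) were the closest below. Neighbours in the order of the 69 levels were rarely apart: in 57 of 68 neighbouring pairs the libraries of the 2 genes overlapped. Within families, 1 of 7 neighbouring pairs overlapped in Kmt, 1 of 7 in Kat, 1 of 6 in Sirt and 2 of 6 in Prmt. In Setd 4 of 9 did, in Hdac 6 of 10 and in Kdm 9 of 17. Shorter lists leave wider gaps between neighbours, so these shares are not comparable with that over all 69 genes. With 2 values a gene, an exact two-sided permutation test cannot go below p = 0.333, so these orders carry no p.

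Levels by gene hide which transcripts supply them. Among the 52 enzyme genes for which each library held at least 50 counts, the most abundant transcript by TPM was annotated as something other than protein coding for 11 (21.2%), against 18.2% of the 6308 protein-coding genes at that depth. By counts it was so for 2 (3.85%), against 11.0%, because TPM gives weight to short transcripts. The most abundant transcript was the same in both libraries for 41 genes (78.8%), against 84.5%. The median share of a gene's TPM in transcripts not annotated as coding, including those that the later annotation lacks, was 6.11%, against 0.680%. These medians are not on an equal footing, since a gene with a single, coding transcript can have no such share. More than 1 transcript was listed for 48 of the 52 enzyme genes and for 4718 of the 6308 genes.

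The H4 lysine 20 writers were mostly coding RNA. Kmt5a rested on a single transcript, Kmt5a-201, with 94.9% and 95.3% of its TPM. Kmt5c was divided among coding transcripts, with Kmt5c-203 at 43.7% and 34.5% and Kmt5c-202 at 34.7% and 25.8%, while Kmt5c-205, a retained intron, had 11.4% and 8.86%. For Kdm5c, the short coding model Kdm5c-205 of 756 bases had 62.6% and 51.7% of TPM but 14.3% and 10.3% of counts, and the long Kdm5c-203 of 6449 bases had 6.21 and 6.53 TPM. By its long transcript alone, Kdm5c was thus below the 10 TPM that the gene as a whole passed. Sirt7 was also divided, with Sirt7-207 at 37.6% and 51.3% and the 427-base Sirt7-202 at 47.9% and 19.3%, so the leading transcript differed between the libraries.

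The 11 genes led by a non-coding transcript by TPM were Sirt2, Hdac1, Hdac5, Hdac7, Hdac10, Prmt5, Kat7, Kat14, Setd5, Kdm5a and Kmt2a. The retained intron Hdac1-206 had 41.3% and 60.2% of Hdac1 TPM, against 55.9% and 33.3% for the coding Hdac1-201, whose level was 4.81 and 3.13 TPM. Hdac5 had 71.6% and 71.4% of its TPM in transcripts other than coding ones, which left 1.73 and 2.37 TPM of coding RNA. By coding TPM, Hdac1 was still 2.52-fold and 2.32-fold above Hdac2. Sirt2 had a retained intron, Sirt2-204, as its leading transcript at 43.9% and 35.9%, and its coding transcripts summed to 7.75 and 9.70 TPM. Prmt5 depended most on this: the 338-base processed transcript Prmt5-203 had 84.1% and 76.2% of TPM, and the coding Prmt5-201 had 0.66 and 1.11 TPM. The coding transcript of Kat7 was not the same in the libraries, with Kat7-205 at 0.43 and 0.00 TPM and Kat7-204 at 0.00 and 0.70. Counting coding transcripts only, 20 of 69 genes passed 1 TPM in both libraries, against 16.9% of all protein-coding genes on the same basis, Prmt5 and Kat7 having dropped out.

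**Figure D2:**
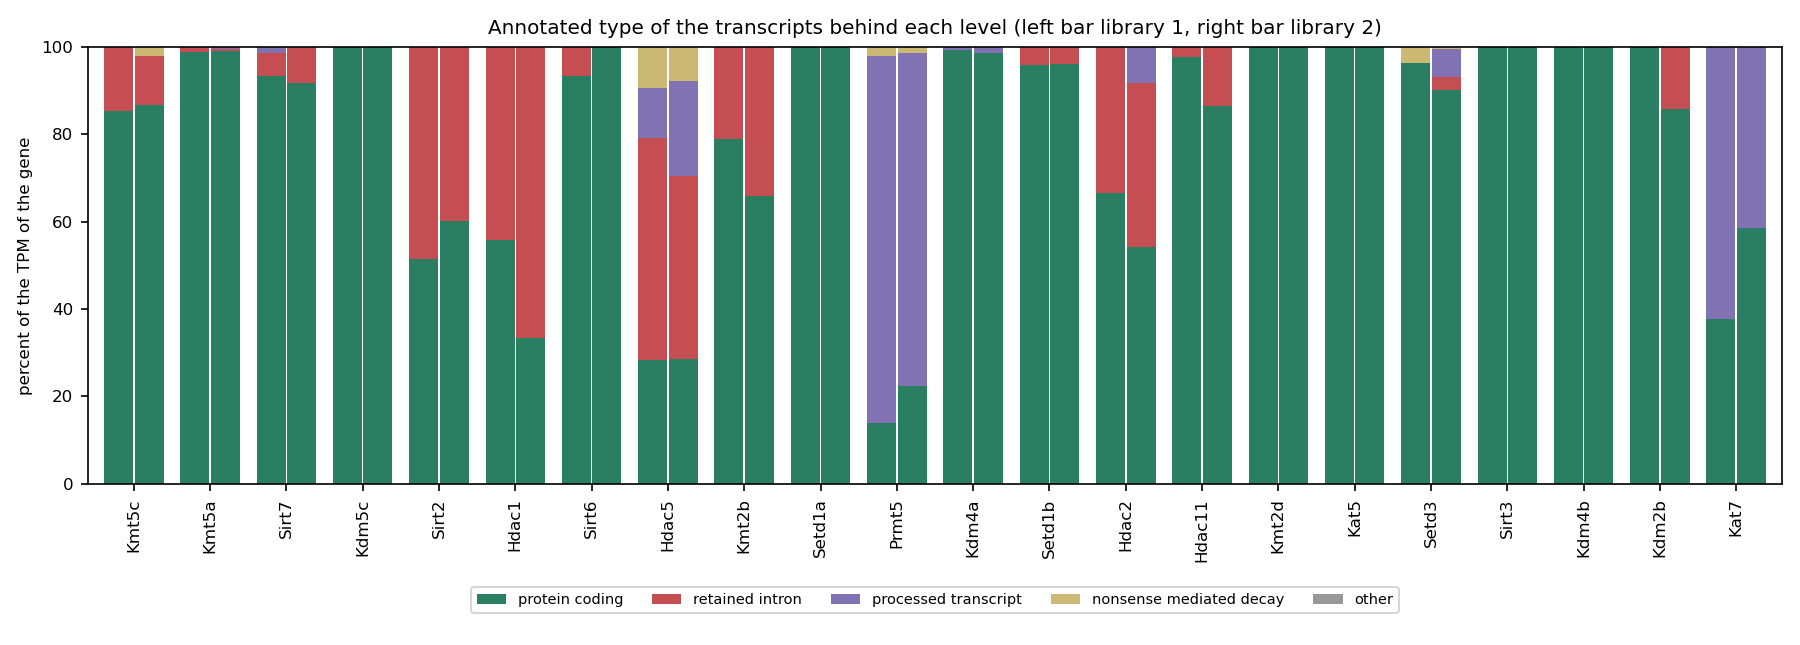
Percent of each gene's TPM by annotated transcript type for the 22 enzyme genes at 1 TPM or more in both libraries, ordered by level; the left bar of each pair is library 1 and the right bar library 2. Prmt5 and Hdac5 have the largest non-coding parts in both libraries, while Kmt5a, Kdm5c, Setd1a and Kmt2d are almost wholly coding.

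The libraries were compared gene by gene with a two-sided exact binomial test on rounded expected counts scaled by TMM, adjusted by the Benjamini-Hochberg method over all 10955 genes with 10 or more counts. With 1 library on each side this compares the libraries and not conditions, and the log2 ratio is library 1 over library 2. Of 66 enzyme genes tested, 34 (51.5%) differed at an adjusted p under 0.05, against 44.9% of all genes tested; 16 were higher in library 1 (all genes 22.5%) and 18 in library 2 (all genes 22.4%). Kdm4d, Hdac9 and Prmt8 had too few counts. The differences were small: for the 40 enzyme genes for which each library held at least 100 counts, the median size of the log2 ratio was 0.32, against 0.24 for 5256 such genes, and 97.5% lay within 2-fold, against 97.1%. By family the calls numbered 7 of 10 for Hdac, 2 of 8 for Kat, 8 of 17 for Kdm, 6 of 8 for Kmt, 1 of 6 for Prmt, 7 of 10 for Setd and 3 of 7 for Sirt.

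Of the 66 tested, 5 (7.58%) were called with a difference of 2-fold or more, against 12.8% of all genes tested, and all 5 were higher in library 2. Hdac11 had 292 counts in library 1 and 542 in library 2, a log2 ratio of -1.08 (binomial test, adjusted p = 7.0e-25). The other 4 rested on few counts: 14 and 35 for Sirt4 (log2 ratio -1.51), 15 and 31 for Setd4 (-1.24), 6 and 22 for Kdm5b (-2.07) and 2 and 12 for Kdm5d (-2.78). Kmt5c and Kmt5a were both called at much smaller sizes, with log2 ratios of 0.12 (adjusted p = 1.1e-09) and -0.06 (adjusted p = 0.022), and Sirt2 was not called (-0.04, adjusted p = 0.56). For Kmt5c the direction was not the same by TPM, which was lower in library 1, and by scaled counts, which were higher there. The mean transcript length of Kmt5c was 2117 bases in library 1 and 1924 in library 2. The globin share of TPM also differed, at 86.0% in library 1 and 84.4% in library 2, and the part of each was not tested. Kdm5d lies on the Y chromosome, and the share of male embryos in each pool is not given. Uty, a Y-linked gene outside the naming rule, had 5 counts in library 1 and 4 in library 2.

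**Figure D3:**
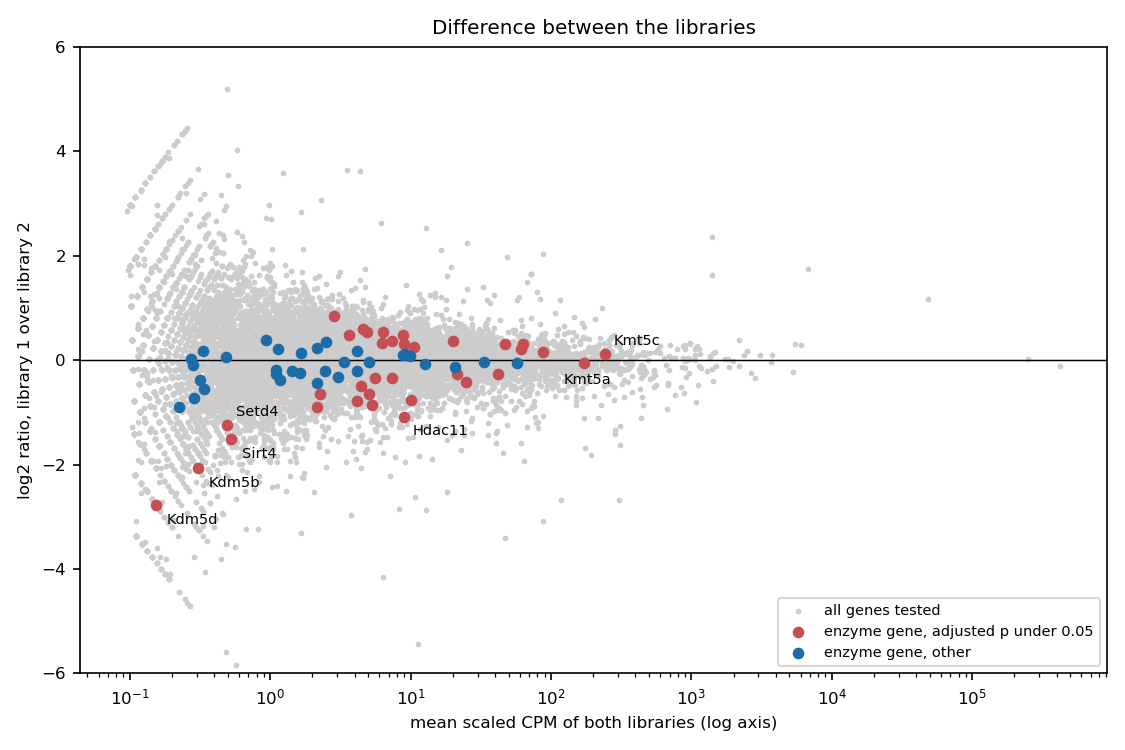
Log2 ratio of library 1 over library 2 against the mean of TMM-scaled CPM (log axis) for genes with counts in both libraries, all genes tested in grey and enzyme genes in colour, red where the adjusted p was under 0.05. The vertical axis ends at 6 on either side of 0 and leaves out 2 genes; Kmt5c and Kmt5a lie near 0 at the right and the 5 genes past 2-fold lie below.

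Level followed base composition among these genes. Spearman's coefficient between the GC content of a gene's transcripts and its level was 0.472 over the 69 enzyme genes and 0.299 over all 21474 protein-coding genes, given as a description, since genes of 1 pair of libraries share their preparation and depth. Of the 35 enzyme genes with the higher GC content, 18 passed 1 TPM in both libraries, against 4 of the 34 with the lower. Those 4 included Hdac2 at a GC content of 41.3% and Setd3 at 47.2%. The median GC content was 55.1% for the 22 that passed and 48.3% for the others, against 53.3% and 48.7% over all protein-coding genes. Close relatives did not all follow this order. The level ran with GC content for Kmt5c at 58.2%, Kmt5a at 52.4% and Kmt5b at 47.1%, and for Kdm5c at 54.8% and Kdm5a at 43.8%. It ran the other way for Kdm4b (58.3%) and the more abundant Kdm4a (54.1%), for Kdm5b (46.3%) and the more abundant Kdm5a, for Setd1b (56.9%) and the more abundant Setd1a (56.5%), and for Sirt4 (55.5%) and the more abundant Sirt3 (53.7%). The part of base composition in these levels was not tested.

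**Figure D4:**
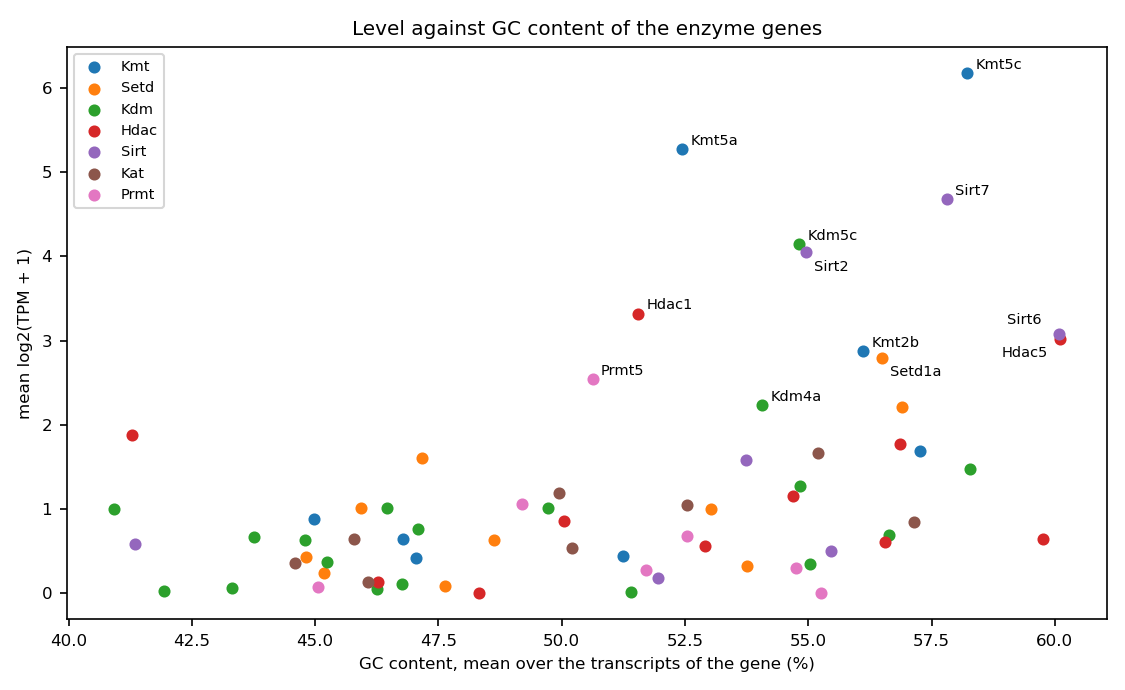
Mean log2(TPM + 1) of both libraries against the GC content of each enzyme gene, averaged over its transcripts, coloured by family, with the 12 most abundant genes named. All 12 lie above 50% GC, and below 50% the highest is Hdac2.

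The enzymes act in complexes, and 120 partner genes and enzymes outside the naming rule were listed by role, of which 119 were measured. Of these, 64 (53.8%) passed 1 TPM in both libraries, with a median level of 1.43 TPM. The lists were compiled by known function, not sampled from all genes, so their share is a description beside the 31.9% of the enzyme genes. The NuRD list, whose complex contains HDAC1 and HDAC2, had 8 of 9 genes that passed, led by Mbd3 (23.9 and 28.8 TPM), Mbd2 (22.2 and 21.4) and Mta3 (19.2 and 21.6), with Gatad2b lowest at 0.14 and 0.11. Of the SIN3 and NCOR list, 8 of 11 passed, with Gps2 at 92.3 and 124 TPM, Sap18 at 84.0 and 99.0 and Tbl1xr1 lowest at 0.04 and 0.02. Gps2, Sap18, Mbd3, Mbd2 and Mta3 each stood above Hdac1, Hdac2 and Hdac3 in both libraries.

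The CoREST list was uneven. Hmg20b, a subunit of the LSD1 complex, had 53.8 and 63.2 TPM, Gfi1b had 36 and 53.8 and Gse1 had 18.2 and 18.1, whereas the scaffold Rcor1 had 0.45 and 0.43, its relative Rcor3 had 1.16 and 1.77 and Phf21a had 0.11 and 0.20. Gfi1b was thus far above Kdm1a, at 0.92 and 1.13 TPM, in both libraries. Among COMPASS subunits, which serve the H3 lysine 4 writers, 5 of 10 passed, led by Hcfc1 (15.8 and 27.7 TPM), Cxxc1 (7.38 and 8.50) and Paxip1 (3.97 and 4.43), with Rbbp5, a core subunit, lowest at 0.38 and 0.23. Of the PRC2 list, which serves H3 lysine 27 methylation, 6 of 9 passed, with Rbbp4 at 8.09 and 6.12 TPM, Rbbp7 at 6.67 and 5.09, Phf1 at 4.58 and 6.13 and Mtf2 lowest at 0.40 and 0.30.

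Some partners of the acetyltransferases were above every Kat gene, and others were below most of them. The median level was 1.375 TPM in the list of NuA4, MSL and MYST partners and 0.925 TPM in the SAGA and ATAC list. For the Kat genes it was 0.675 TPM. In the list of NuA4, MSL and MYST partners 11 of 21 passed, with the scaffold Brpf3 at 89.8 and 90.0 TPM, Morf4l2 at 21.9 and 18.0, Meaf6 at 14.9 and 18.3 and Jade3 lowest at 0.03 and 0.05; no Kat gene reached 3 TPM. Of the SAGA and ATAC list 6 of 14 passed, with Tada3 at 13.4 and 7.62 TPM, Taf6l at 8.91 and 10.2, Sgf29 at 4.12 and 9.94 and Yeats2 lowest at 0.15 and 0.08. Of the PRMT partners 3 of 5 passed, with Btg2 at 13.4 and 16.8 TPM, Btg1 at 1.54 and 1.47, Clns1a at 1.42 and 1.47 and Riok1 lowest at 0.37 and 0.34.

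Enzymes of the same activities that carry other names were also measured. Carm1, an asymmetric arginine methyltransferase, had 39.4 and 47.4 TPM, above every Prmt gene in the rule, and Dot1l, the H3 lysine 79 methyltransferase, had 8.97 and 11.1. Ehmt2, an H3 lysine 9 methyltransferase, had 6.53 and 7.20 TPM, above Setdb1, and Ezh2, the PRC2 methyltransferase, had 2.16 and 1.97. Of these 19 methyltransferases 8 passed, and Prdm9, a germ cell enzyme, was lowest at 0.01 in both libraries. Of 7 further demethylases 2 passed, Jmjd6 at 3.59 and 6.60 TPM and Phf2 at 3.28 and 3.42, while Riox1 had 0.50 and 1.11 and the Y-linked Uty 0.01 and 0.02. Of 6 further acetyltransferases 3 passed, Ep300 at 2.81 and 3.33 TPM, Naa40 at 1.82 and 2.07 and Crebbp at 1.26 and 1.75, and Ncoa1 was lowest at 0.04 in both.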

How the data were processed

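The deposited tables give, for each gene and transcript of each library, expected counts, TPM, a posterior mean TPM and, per gene, FPKM, made by the authors with mm10 and GENCODE M4, per the listing deposited beside them. The deposited percent of a gene's TPM in each transcript was used for transcript shares, and the deposited interval bounds of TPM, a signal never below 0, support no result. Which aligner, quantifier and versions were used, and whether strand was, is not given in the sources used here. Names, transcript types and coordinates came from GENCODE M21 on the same build, which matched 42462 of 43346 Ensembl genes by identifier. Promoters came from RefSeq.

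A gene passed at 1 TPM or more in both libraries; log levels used a pseudocount of 1. Expected counts were rounded to whole numbers and scaled by TMM (edgeR 4.0.16, factors 0.993 and 1.01; R 4.3.3) for an exact binomial test (SciPy 1.17.1), which replaced a model with replicates because there is 1 group. Its p-values measure counting error between these 2 libraries, and reads without molecular identifiers are not independent molecules, so limits at 0 counts (3 counts) cover counting error only. Counts were whole within 0.01 for 66 of the 69 genes, the exceptions being Sirt7, Hdac1 and Kat14. The test was checked on simulated counts that held counting error only, so this check does not cover any other spread between libraries. DESeq2 1.42.0 size factors were an alternative. The enzyme genes and all lists were chosen with earlier results of these data known. Values by library are given for every enzyme gene; from each partner list, the 3 highest and the lowest by mean TPM are named, except 1 that is not reported here, and Rcor1, Rcor3 and Ezh2, added to these, were chosen after their values were seen. Exons of 30 enzyme genes share bases with another annotated gene, 7 of them over 10% or more with a single such gene. Among the 22 that passed these are Setd1a, Hdac11 and Kat5. Setd1a and Hdac11 share bases mainly with models that have no row in the tables. Sirt3, which also passed, shares 5.73% of its exon bases with Psmd13 and 7.00% with Ric8a, both on the opposite strand.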

Additional observations from a re-analysis of the deposited data

How the results depend on the processing

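Of 59 values under alternatives, 14 moved by more than 1.5 times for a count, or by more than the spread between the libraries for a level, and 45 moved by less or not at all. The number of enzyme genes detected, 22, became 35 by FPKM, 52 by CPM, 38 at 0.5 TPM, 15 at 2 TPM and 10 at 5 TPM, and lay between 26 and 27 with either library alone; over all protein-coding genes 24.8% passed 0.5 TPM, 14.9% passed 2 TPM and 9.23% passed 5 TPM. The median level of 0.69 on the log2(TPM + 1) scale became -0.49 with a pseudocount of 0.1, 1.08 by FPKM, 0.76 by posterior mean TPM, 1.73 among genes with a mean of 1 TPM or more, and 0.73 to 0.77 with either library alone. Coding transcripts only, an alternative chosen after seeing the data, gave 0.60 and 20 detected genes, and adding Prmt1, also chosen after seeing the data, gave 23. The Prmt family had 1 to 2 detected genes with either library alone. The sum of 0.173% of non-globin TPM was 0.0255% of all TPM. Leading non-coding transcripts numbered 11 by TPM and 2 by expected counts. The 7 family leaders were the same by posterior mean TPM, by FPKM and in either library alone; by CPM 5 were, since Hdac5 and Kat6a then led their families in place of Hdac1 and Kat5. Of the partner list, 64 passed, against 80 at 0.5 TPM and 46 at 2 TPM. All 34 calls between the libraries were kept under each normalization, and 30 were called with a minimum of 100 counts. No paired analysis was possible because there is 1 group. Members with under 100 counts in a library (29 of 69) are the least certain.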
